A study of Mus musculus with 6 samples.

Results

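Haemoglobin genes and 4 other genes of the red cell were followed in the lungs of Zpbp2 knockout (KO) and wild-type (WT) mice. They were chosen by name, as the 8 of the 47069 genes in the count matrix that encode the adult haemoglobin chains (Hba-a1, Hba-a2, Hbb-bs and Hbb-bt) or belong to haem synthesis, the red cell membrane or the red cell's glucose metabolism (Alas2, Slc4a1, Epb42 and Bpgm). Each gene was compared between mice as a measure of blood in the lung. All 8 passed the filter on low counts that left 17037 genes for testing.

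Messenger RNA was sequenced from the lungs of 6 adult C57BL/6J mice at ZT10, 10 hours after lights on, with 1 stranded library per mouse. The 3 KO mice (KO4, KO5 and KO6) carried a germline deletion of exons 1 to 3 of Zpbp2, placed in the C57BL/6J background from a 129S7-derived strain, so that the gene was missing in all cells and not in the lung alone. The 3 WT mice (WT4, WT5 and WT6) were C57BL/6J controls from the same colony, and no mouse was given a treatment. The sex of each mouse, its age beyond adult, and whether the lungs were perfused to clear blood are not given in the sources used here.

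Mature mammalian red cells have no nucleus and make no new RNA, but the youngest of them in the circulation, the reticulocytes, still carry RNA that is rich in globin messages. Haemoglobin joins a pair of alpha chains to a pair of beta chains, each holding a haem group that binds oxygen in the lung and releases it in the tissues. A lung filled with capillaries always brings blood RNA into a library made from the whole organ, and in bulk samples fewer red cells or reticulocytes cannot be told apart from less RNA per cell.

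Library totals ran from 19981428 to 46796908 counts, with KO5 the deepest and KO6 the shallowest library. Zpbp2 had 1, 2 and 2 counts in the WT libraries, ordered by number, and 0 in each KO library, all under the 3 counts taken as the detection floor, which was worth 0.0629 to 0.148 CPM (counts scaled to a common library total) in these libraries. The targeted gene therefore could not check the genotypes. The lung markers Sftpc, Ager and Pecam1 were high in all 6 libraries, with Sftpc, a surfactant protein of type 2 alveolar cells, between 9327 and 13765 CPM. Defining markers of red cell precursors were near 0, since Klf1, a factor that switches on the adult beta globin gene, had 1 to 5 counts per library, Hemgn had 0 to 8 and Car1 had 0 to 4.

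The 4 haemoglobin genes lie in pairs of near-identical copies. Hba-a1 (chr11:32283511-32284465, plus strand) and Hba-a2 (chr11:32296489-32297298, plus strand) encode the adult alpha chain, while Hbb-bs (chr7:103826534-103828096, minus strand) and Hbb-bt (chr7:103812524-103813996, minus strand) encode the adult beta chain of C57BL mice, in GRCm38 coordinates of the GENCODE M21 annotation. The coding sequences of the alpha pair, 426 bases each, differed at 1 base (C381T, Hba-a1 first, counted from the A of the start codon), and those of the beta pair, 441 bases each, also at 1 base (C417T, Hbb-bs first). The coding stretches that end at these bases are shown, with the differing base in capitals, because they show how little separates the counts of the copies.
Hba-a1: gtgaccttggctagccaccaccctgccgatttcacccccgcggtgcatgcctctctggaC
Hba-a2: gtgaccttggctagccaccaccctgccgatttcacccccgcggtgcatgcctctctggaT
Hbb-bs: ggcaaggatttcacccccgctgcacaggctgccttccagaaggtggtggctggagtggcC
Hbb-bt: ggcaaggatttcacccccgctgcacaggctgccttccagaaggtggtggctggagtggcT
Each stretch is 60 bases, covering coding positions 322 to 381 of the alpha genes and 358 to 417 of the beta genes. Of all 100-base windows in each reference transcript, 43.5% of those in Hba-a1, 25.5% in Hba-a2, 37.4% in Hbb-bs and 45.2% in Hbb-bt were found in no other gene, against 100% in Alas2, Slc4a1, Bpgm and Epb42. Counts of the separate copies are therefore uncertain, and how the counting treated reads that map to both copies is not given in the sources used here, so the 4 genes are also reported as a sum.

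The haemoglobin genes were lower in the KO lungs. Together they held 0.208% ± 0.00937 (SD, n = 3) of all gene counts in WT mice and 0.113% ± 0.0206 (SD, n = 3) in KO mice, so that the KO share was 54.3% of the WT share. In the single mice the share was 0.210% in WT4 (95% Clopper-Pearson interval 0.209 to 0.212), 0.216% in WT5 (0.214 to 0.218) and 0.198% in WT6 (0.196 to 0.199). It was 0.0988% in KO4 (0.0974 to 0.1002), 0.137% in KO5 (0.135 to 0.138) and 0.104% in KO6 (0.102 to 0.105). KO4 and KO6 were close to each other, KO5 was higher than both, and no KO mouse reached the lowest WT mouse. The intervals cover counting error only and are far narrower than the spread between mice. A two-sided exact permutation test of the share gave p = 0.1, the smallest value that 3 mice against 3 allow.

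**Figure D1:**
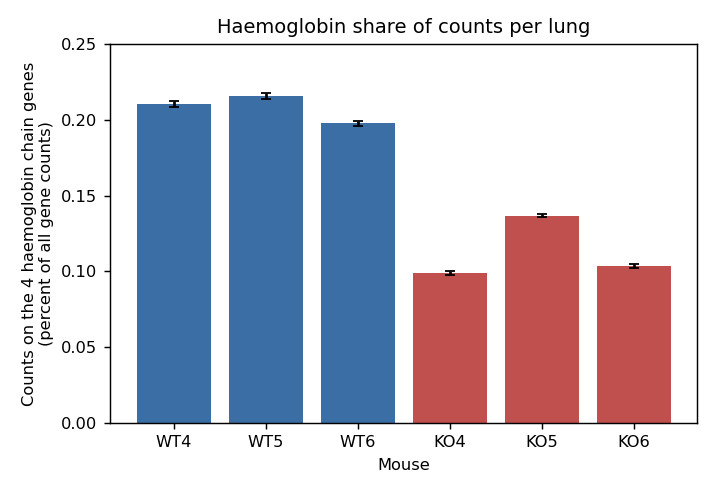
Summed counts of the 4 haemoglobin genes as a percent of all gene counts (y axis, from 0) in each of the 6 lungs (bars along the x axis, WT in blue and KO in red), with 95% Clopper-Pearson intervals. WT mice lie between 0.198% and 0.216% and KO mice between 0.0988% and 0.137%, with KO5 the highest of the KO mice.

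Haemoglobin was also lower in KO mice against other denominators. Per 1000 counts of Eef2, a translation elongation factor which the study used as its reference gene in PCR, haemoglobin counts were 1353, 1447 and 1343 in WT4, WT5 and WT6 and 607, 764 and 659 in KO4, KO5 and KO6. Eef2 itself had a log2 fold change (KO over WT) of 0.11 with an adjusted p of 0.373 (edgeR). Per 1000 counts of 12 lung endothelial genes, a measure of the vessel wall added after the data were seen, they were 330.1, 345 and 338 in WT4, WT5 and WT6 and 154, 242 and 173 in KO4, KO5 and KO6. The KO mice were below the WT mice with either denominator.

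**Figure D2:**
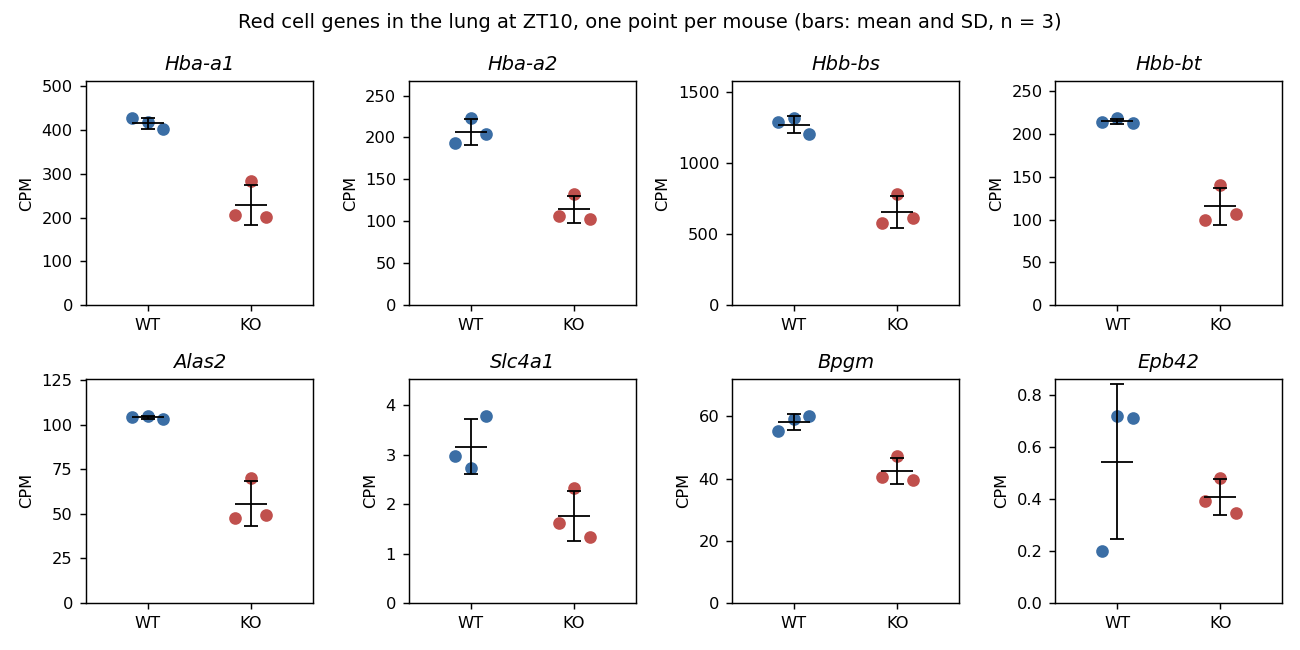
Level of each of the 8 genes in CPM (y axis, linear from 0, a panel per gene) in the 3 WT (blue) and 3 KO (red) lungs (points, ordered by number), with group means and SD (black, n = 3). The KO points lie below all WT points in 7 of the 8 genes, Epb42 being the exception.

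Each chain gene was also lower in KO mice by itself. Hbb-bs was the most abundant, at 1291, 1314 and 1205 CPM in WT4, WT5 and WT6 and at 576, 786 and 611 CPM in KO4, KO5 and KO6. Its log2 fold change was -0.95 (SE 0.120, adjusted p = 0.0142, edgeR's quasi-likelihood F-test, adjusted by the Benjamini-Hochberg method over 17037 genes). The highest KO mouse, KO5, stood well under the lowest WT mouse, WT6. Hbb-bt, the minor beta gene, was at 213, 218 and 213 CPM in the WT and 99.9, 140.0 and 107 CPM in the KO libraries, in the same order. Its log2 fold change was -0.89 (SE 0.121, adjusted p = 0.0175, edgeR). The WT mice were spread over 0.0374 on the log2 scale and the KO mice over 0.486, and the groups did not overlap.

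The alpha genes fell by a similar amount. Hba-a1 was at 426, 418 and 402 CPM in WT4, WT5 and WT6 and at 205, 282 and 201 CPM in KO4, KO5 and KO6, a log2 fold change of -0.85 (SE 0.130, adjusted p = 0.0211, edgeR). Hba-a2 was at 193, 223 and 204 CPM in the WT and 107, 133 and 103 CPM in the KO libraries, ordered by number, also a log2 fold change of -0.85 (SE 0.106, adjusted p = 0.0137, edgeR). In both genes all 3 KO mice lay below all 3 WT mice, with KO5 again nearest to them.

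The balance of the chains was close in the 2 genotypes. Hba-a1 supplied 66.8% ± 1.84 (SD, n = 3) of the alpha counts in WT mice and 66.6% ± 1.21 (SD, n = 3) in KO mice, while Hbb-bs supplied 85.5% ± 0.456 (SD, n = 3) and 85.1% ± 0.170 (SD, n = 3) of the beta counts. Beta counts per alpha count were 2.39 ± 0.0457 (SD, n = 3) in WT mice and 2.25 ± 0.0985 (SD, n = 3) in KO mice. All 3 ratios overlapped between the groups, with exact permutation p-values of 0.9, 0.3 and 0.2 before adjustment over the 7 ratios compared. After Benjamini-Hochberg adjustment the exact permutation p-values were 0.9, 0.525 and 0.467. With 3 mice against 3 no p under 0.1 could be reached, so these values do not show that the balance was equal.

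Alas2 encodes the erythroid form of 5-aminolevulinate synthase, the first and rate-limiting enzyme of haem synthesis, and followed the chains closely. It was at 105, 105 and 103 CPM in WT4, WT5 and WT6 and at 47.6, 70.3 and 49.5 CPM in KO4, KO5 and KO6. The WT mice hardly differed, spanning 0.0214 on the log2 scale, and the KO mice lay below them with KO5 the highest. The log2 fold change was -0.90 (SE 0.142, adjusted p = 0.0227, edgeR). Alas2 lies at chrX:150547375-150570638 on the plus strand and is overlapped on the opposite strand by Apex2, a DNA repair nuclease with a log2 fold change of -0.09 (adjusted p = 0.723, edgeR) at 7.21 to 9.38 CPM, and by Mir3620, which had no counts. Whether the counting used strand is not given in the sources used here, although Apex2 was far less abundant than Alas2 in all 6 libraries.

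Bpgm encodes bisphosphoglycerate mutase, which makes the 2,3-bisphosphoglycerate that lowers the oxygen affinity of haemoglobin, and it was lower in KO mice by a smaller amount. It lies at chr6:34476207-34505613 on the plus strand. Its level was 55.4, 59.0 and 60.1 CPM in WT4, WT5 and WT6 and 40.6, 47.2 and 39.6 CPM in KO4, KO5 and KO6. The groups did not overlap, and the log2 fold change was -0.45 (SE 0.0785, adjusted p = 0.0265, edgeR).

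Slc4a1 encodes band 3, the anion exchanger that moves bicarbonate and chloride across the red cell membrane, and lies at chr11:102348824-102366203 on the minus strand. WT4, WT5 and WT6 had 74, 57 and 117 counts, while KO4, KO5 and KO6 had 33, 111 and 27. These corresponded to 2.98, 2.73 and 3.78 CPM and to 1.61, 2.33 and 1.33 CPM, where KO5 came from the deepest library, and each KO level was below each WT level. The log2 fold change was -0.82 (SE 0.247, adjusted p = 0.0949, edgeR), near the size of the chains but with a larger error, and it did not pass the threshold of 0.05. Without KO5 it was -1.11 (adjusted p = 0.0436, edgeR) and passed.

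Epb42 encodes protein 4.2, which ties band 3 to the membrane skeleton, and lies at chr2:121017891-121037072 on the minus strand. WT4, WT5 and WT6 had 5, 15 and 22 counts, while KO4, KO5 and KO6 had 8, 23 and 7. WT4 was the lowest of the 6 mice at 0.201 CPM, the other WT mice were the highest at 0.719 and 0.712 CPM, and the groups overlapped. Its log2 fold change of -0.38 (SE 0.468, adjusted p = 0.664, edgeR) had an error larger than itself, so a change of the size seen in the chains was not detectable at this depth.

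Of the 8 genes, 6 were called lower in KO mice at an adjusted p of at most 0.05 (the 4 chains, Alas2 and Bpgm) and 0 were called higher, where 2.67% of the 17037 tested genes were called lower and 3.72% higher (6.39% in either direction). DESeq2 and edgeR's exact test both called 6 lower and 0 higher, where they called 4.65% and 3.12% of all genes lower. Among all genes, DESeq2 called 1065 of 16811 higher and the exact test 936 of 17037. At unadjusted p-values 7 were lower and 0 higher. The share of all tested genes at unadjusted p-values was not counted, so such counts, here and below, have no background beside them. The median log2 fold change of the 8 genes was -0.85, against 0.00 over all tested genes. Every KO mouse was below every WT mouse in 7 of the 8, beside 15.6% of all tested genes, and no gene of the 8 had every KO mouse above every WT mouse, beside 17% of all tested genes. The 8 genes are not separate observations, since the chain copies are near-identical and all 8 were measured in the same 6 mice. None passed the stricter rule of the study, which adds an absolute log2 fold change of at least 1.5 and which 0.64% of tested genes met (0.0646% lower in KO), since all 8 changes were smaller than that. In all 8 genes KO5 had the highest level of the KO mice.

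The number called depended on single libraries. It was 7 without KO5, 6 without KO4, 3 without WT4 and 0 without WT5, without WT6 or without KO6, fits in which 933, 1278, 254, 1, 63 and 117 genes of all tested were called in that order. The log2 fold changes themselves moved less, and each of the 8 stayed below 0 in all 6 of these fits.

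**Figure D3:**
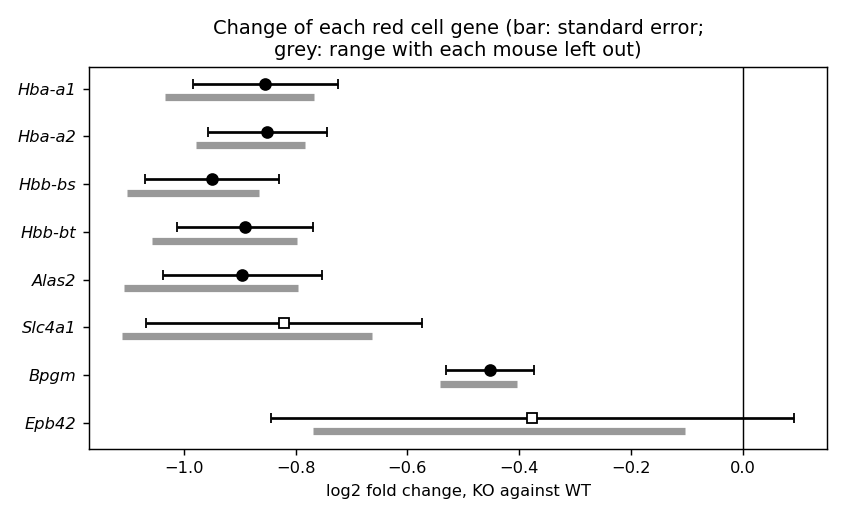
Log2 fold change (x axis, KO over WT, edgeR) of each of the 8 genes (rows), with bars of 1 standard error, filled where the adjusted p was at most 0.05, and in grey the range over the fits without each mouse. The 4 chains, Alas2 and Slc4a1 lie between -0.95 and -0.82, Bpgm lies at -0.45 and Epb42 has a bar that reaches past 0.

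Corrected for length, the order of the levels in WT mice ran from Hbb-bs at 1654 ± 75.1 RPKM (CPM per kilobase of exon, SD, n = 3) through Hba-a1 at 512 ± 15.1, Hba-a2 at 310 ± 22.6, Hbb-bt at 305 ± 4.28, Alas2 at 43.4 ± 0.337, Bpgm at 16.2 ± 0.684 and Slc4a1 at 0.647 ± 0.113 to Epb42 at 0.1004 ± 0.0548. Hba-a2 and Hbb-bt did not differ beyond their spread, and all other neighbours in that order did. In KO mice the order was the same, from Hbb-bs at 856 ± 146 RPKM to Epb42 at 0.0750 ± 0.0129 RPKM (SD, n = 3). The levels of the chains also carry the uncertainty of the shared reads.

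Measured against haemoglobin, Alas2 had like values in both groups, while Bpgm was higher in the 3 KO mice. Alas2 counts per 1000 haemoglobin counts were 49.2, 48.3 and 51.1 in WT4, WT5 and WT6 and 48.2, 52.5 and 48.5 in KO4, KO5 and KO6, means of 49.6 ± 1.43 and 49.7 ± 2.40 (SD, n = 3). The groups overlapped, with an exact permutation p of 0.9, adjusted 0.9. Bpgm counts per 1000 haemoglobin counts were 26.1, 27.2 and 29.7 in WT4, WT5 and WT6 but 41.1, 35.2 and 38.7 in KO4, KO5 and KO6. All 3 KO mice were above all 3 WT mice, and the KO mean of 38.3 ± 2.98 was 1.39 times the WT mean of 27.7 ± 1.86 (SD, n = 3). The exact permutation p was 0.1, the smallest possible here, and 0.467 after Benjamini-Hochberg adjustment over the 7 ratios, so this difference did not pass. Slc4a1 stood at 1.51 ± 0.320 in WT and 1.56 ± 0.226 in KO mice (SD, n = 3, exact permutation p = 0.9). Epb42 counts per 1000 haemoglobin counts ran from 0.0948 to 0.352 in WT and from 0.338 to 0.396 in KO mice, with an exact permutation p of 0.2, adjusted 0.467.

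**Figure D4:**
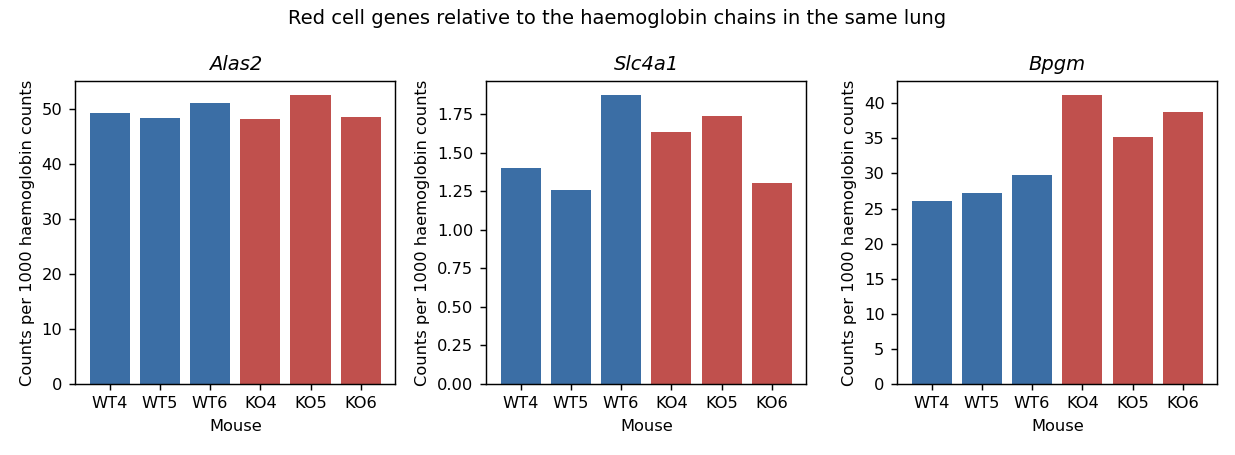
Counts of Alas2, Slc4a1 and Bpgm (panels) per 1000 haemoglobin counts (y axis, from 0) in each of the 6 lungs (bars along the x axis, WT in blue and KO in red). Alas2 is near 50 in both groups (means 49.6 and 49.7), whereas Bpgm averages 27.7 in WT and 38.3 in KO mice without overlap.

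Promoters of 7 of the 8 genes were found in the RefSeq table for GRCm38.p6, Slc4a1 being the one not found. The 250 bases before the RefSeq start were searched on both strands. The motifs were AGATAA (bound by GATA factors), CACCC (bound by KLF factors), CCAAT and TATAA. RefSeq starts differ from the GENCODE M21 starts, so the stretches shown reach into the gene spans given above. Of 32851 promoters of the same length, 9.99% held AGATAA, 52.0% CACCC, 33.8% CCAAT and 22.8% TATAA. A promoter of each role is shown, with matches on either strand in capitals, because the genes that moved by similar amounts and the one that moved less can then be read side by side. Hba-a2 is shown from chr11:32296242-32296491 (plus strand), Hbb-bs from chr7:103827929-103828178 (minus strand), Alas2 from chrX:150547167-150547416 (plus strand) and Bpgm from chr6:34476106-34476355 (plus strand).
Hba-a2: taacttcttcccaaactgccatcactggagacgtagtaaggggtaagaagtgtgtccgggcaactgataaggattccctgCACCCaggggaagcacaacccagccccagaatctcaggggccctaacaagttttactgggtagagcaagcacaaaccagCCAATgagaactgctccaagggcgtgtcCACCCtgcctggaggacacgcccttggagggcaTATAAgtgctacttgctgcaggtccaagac
Hbb-bs: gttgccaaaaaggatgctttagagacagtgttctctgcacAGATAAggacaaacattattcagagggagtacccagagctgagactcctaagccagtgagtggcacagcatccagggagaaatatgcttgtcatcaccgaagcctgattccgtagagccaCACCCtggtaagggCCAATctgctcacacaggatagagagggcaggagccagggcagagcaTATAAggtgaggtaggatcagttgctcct
Alas2: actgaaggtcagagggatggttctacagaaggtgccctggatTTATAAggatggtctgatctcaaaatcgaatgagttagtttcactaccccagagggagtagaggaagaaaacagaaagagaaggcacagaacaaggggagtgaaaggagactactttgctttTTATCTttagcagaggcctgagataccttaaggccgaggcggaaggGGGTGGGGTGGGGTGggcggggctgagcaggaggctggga
Bpgm: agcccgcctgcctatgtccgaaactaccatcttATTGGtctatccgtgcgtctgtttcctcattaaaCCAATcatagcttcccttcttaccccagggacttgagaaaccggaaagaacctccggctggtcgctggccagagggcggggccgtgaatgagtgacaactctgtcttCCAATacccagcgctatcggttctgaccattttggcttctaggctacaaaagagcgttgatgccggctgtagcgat
The 4 haemoglobin promoters each held a TATAA that began 27 to 30 bases before the start, together with CCAAT and CACCC. Hba-a1 and Hba-a2 had the same bases at all 247 positions where their promoters could be laid on each other. Alas2 held TTATCT, the reverse complement of AGATAA, 86 bases before the start and a run of 3 CACCC matches on the minus strand, and its TATAA and TTATA matches overlapped each other 208 bases upstream. Bpgm held CCAAT on either strand 3 times and no match to the other motifs. Of those not shown, Hbb-bt held 3 CACCC, 3 CCAAT and 2 TATAA matches, and Epb42 held 1 AGATAA and 1 TATAA match. Matches of this length are descriptions of the sequence, and no binding was measured.

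The genes whose profiles were nearest to the chains were looked for among 17005 tested genes, by the root-mean-square distance of their log2 CPM, each centred on its own mean over the 6 mice. The 5 nearest included Olfm2 (distance 0.0509), Gm43668 (0.0613), Gm26549 (0.116) and Hist1h4h (0.122). The 5 nearest to Alas2 included Gm43668 (0.0441), Olfm2 (0.0501), Gm26549 (0.118) and Gpr135 (0.141). Alas2 itself lay at 0.0476 from the mean of the chains, Slc4a1 at 0.204, Bpgm at 0.234 and Epb42 at 0.697. These neighbours had only 12 to 94 counts per library. Olfm2, a secreted olfactomedin protein, had 62, 50 and 75 counts in the WT libraries, ordered by number, against 23, 72 and 23 in the KO libraries, a log2 fold change of -0.93 (adjusted p = 0.0350, edgeR).

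The count of other red cell genes called lower depended on the test. Of 101 listed genes, 97 were in the matrix and 80 were tested, and edgeR's quasi-likelihood test called 2 lower and 4 higher, so that 2.5% were called lower against 2.67% of all tested genes. Their median log2 fold change was -0.04. Many of these genes are also expressed by lung cells that are not red cells. DESeq2 called 10 lower and 4 higher, where it called 4.65% of all genes lower and 1065 of 16811 higher. The exact test of edgeR called 4 lower and 6 higher, where it called 3.12% of all genes lower and 936 of 17037 higher.

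Embryonic globins were not detected above the floor. Hba-x, Hbb-y and Hbb-bh1, chains of the embryo, had at most 2 counts in any library and Hbb-bh2 had 0, under the floor of 3 counts. Of the minor alpha-like genes, Hbq1a had 2 to 5 counts and Hbq1b 0 to 18, both too low to test. The 3 tested globins outside the red cell were not called, at unadjusted p-values either, nor by DESeq2 or edgeR's exact test. Cygb, cytoglobin of fibroblast-like cells, averaged 48.2 CPM in WT and 50.5 CPM in KO mice, with a log2 fold change of 0.07 (adjusted p = 0.593, edgeR). Mb, myoglobin of heart and skeletal muscle, ranged from 17.99 to 91.0 CPM over the 6 mice and its groups overlapped. Ngb, neuroglobin, had a log2 fold change of -0.38 (adjusted p = 0.292, edgeR).

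None of the 14 haem synthesis and mitochondrial transport genes was called in edgeR's quasi-likelihood test, where 3 were lower and 2 higher at unadjusted p-values, DESeq2 called 1 lower and edgeR's exact test 0. Their median log2 fold change was -0.06. Alas1, the housekeeping form of 5-aminolevulinate synthase, was at 445, 462 and 548 CPM in WT4, WT5 and WT6 and at 418, 313 and 389 CPM in KO4, KO5 and KO6. Its groups did not overlap, but the log2 fold change of -0.38 had an adjusted p of 0.117 (edgeR), and KO5, the highest KO mouse in Alas2, was the lowest in Alas1. Fech, ferrochelatase, which puts iron into haem, averaged 61.0 CPM in WT and 57.5 CPM in KO mice, or a log2 fold change of -0.08 (adjusted p = 0.319, edgeR). Slc25a37, mitoferrin, which carries iron into mitochondria, averaged 73.1 and 71.1 CPM.

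Of 20 tested membrane and skeleton genes, 1 was called lower and 1 higher in edgeR's quasi-likelihood test. At unadjusted p-values 5 were lower and 2 higher, DESeq2 called 4 lower and 1 higher, and edgeR's exact test 2 lower and 2 higher. Epb41, protein 4.1, which joins spectrin to actin and is found in many cell types, averaged 229 CPM in WT and 173 CPM in KO mice (log2 fold change -0.41, adjusted p = 0.0354, edgeR). Ackr1, the Duffy chemokine receptor of red cells and venules, rose from 0.453 to 1.15 CPM (log2 fold change 1.34, adjusted p = 0.0303, edgeR). The 3 most abundant were not called, and they were the water channel Aqp1, the adhesion protein Bcam and the tropomyosin Tpm3, with log2 fold changes of -0.30, -0.26 and 0.08.

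Of 22 tested late red cell and reticulocyte genes, 1 was called lower in edgeR's quasi-likelihood test and none higher, with a median log2 fold change of -0.08. At unadjusted p-values 8 were lower and 0 higher, DESeq2 called 2 lower and 0 higher, and edgeR's exact test 1 lower and 0 higher. The abundant genes of that list, Cat, Gpx1 and Bnip3l, which many tissues use against peroxide or to clear mitochondria, had log2 fold changes of 0.02, 0.10 and -0.06.

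Of 9 tested erythroid transcription factors, none was called lower and 2 were called higher in edgeR's quasi-likelihood test. At unadjusted p-values 2 were lower and 3 higher, while DESeq2 called 2 lower and 2 higher and edgeR's exact test 0 lower and 3 higher. Lyl1 rose with a log2 fold change of 0.88 (adjusted p = 0.0274, edgeR) and Lmo2 with one of 0.58 (adjusted p = 0.0390, edgeR), both blood cell regulators that endothelium and leukocytes also express. Gata1, the master regulator of red cells and megakaryocytes, had only 19 to 61 counts, with a log2 fold change of 0.29 (adjusted p = 0.555, edgeR).

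Of 12 tested genes for the clearance of haemoglobin and haem, 1 was called higher and 0 lower in edgeR's quasi-likelihood test. At unadjusted p-values 1 was lower and 3 were higher, and DESeq2 and edgeR's exact test each called 1 lower and 1 higher. Spic, the transcription factor of iron-recycling macrophages, had 14, 14 and 10 counts in the WT libraries, ordered by number, against 28, 132 and 52 in the KO libraries, a log2 fold change of 2.15 (adjusted p = 0.0261, edgeR). Hp, haptoglobin, which binds free haemoglobin, was at 748, 859 and 971 CPM in WT4, WT5 and WT6 and at 689, 513 and 626 CPM in KO4, KO5 and KO6. The groups did not overlap, but its log2 fold change of -0.50 had an adjusted p of 0.0710 (edgeR). The ferritin chains Fth1 and Ftl1, which store iron, had log2 fold changes of -0.07 and 0.06 and overlapped.

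Genes of other blood cells were measured beside the red cell genes. In whole lung these lists cannot separate cells in the blood from cells in the tissue, so they do not measure blood alone. Of 58 such genes tested, 1 was called lower and 14 higher (25.9% in all, against 6.39% of tested genes). Platelet genes, from cells that have no nucleus either, had 14 of 15 log2 fold changes below 0, a median of -0.32 and a summed level of 187 to 199 CPM in WT and 139 to 184 CPM in KO mice. Only Nrgn, neurogranin, was called among them (log2 fold change -0.70, adjusted p = 0.0310, edgeR), and Ppbp, a platelet chemokine, had a log2 fold change of -0.52 (adjusted p = 0.0618, edgeR). KO5, the highest of the KO mice in haemoglobin, was the lowest of them in summed platelet genes.

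Leukocyte genes were called in the other direction. Of 12 monocyte genes, 11 were called higher and 0 lower, beside 3.72% of all tested genes called higher. The median log2 fold change of the 12 was 1.22. The study had already listed Cx3cr1, Cd300e and Adgre4 as higher in these KO mice. As the list was chosen with earlier results known, its count is no independent support. The most abundant of the 12, Ace, which capillary endothelium also makes, was not called. Of 11 tested neutrophil genes, 3 were called higher (S100a8, S100a9 and Retnlg), and their summed levels, 85.4 to 199.9 CPM in WT and 169 to 238 CPM in KO mice, overlapped. None of 10 B cell genes was called in edgeR's quasi-likelihood test, where all 10 were higher at unadjusted p-values. DESeq2 called 8 of them higher, beside 1065 of all 16811 genes it tested. The exact test of edgeR called 10 higher, beside 936 of all 17037. The summed level of the B cell genes was 142 to 157 CPM in WT and 266, 1146 and 322 CPM in KO4, KO5 and KO6. None of 10 T cell genes was called in the quasi-likelihood test either, with 8 higher at unadjusted p-values, 6 by DESeq2 and 3 by edgeR's exact test. Thus KO5 stood apart from the other KO mice in lymphocyte genes as well as in haemoglobin, and what part this had in the red cell genes was not tested.

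Of 29 tested genes of lung endothelium and of type 1 and type 2 alveolar cells, 23 had a log2 fold change below 0, with a median of -0.14. Of these genes 2 (6.9%) were called lower, beside 2.67% of all tested genes, and 0 were called higher. The summed endothelial level was 5980 to 6435 CPM in WT and 5545 to 6426 CPM in KO mice, which overlapped, although Cldn5, a tight junction protein of endothelium, was called lower (log2 fold change -0.31, adjusted p = 0.0362, edgeR). Type 1 alveolar genes summed to 6144 to 6325 CPM in WT and 5377 to 5842 CPM in KO mice, without overlap, and Rtkn2 was called lower among them (log2 fold change -0.40, adjusted p = 0.0211, edgeR). The part of these differences in the haemoglobin result was not tested.

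**Figure D5:**
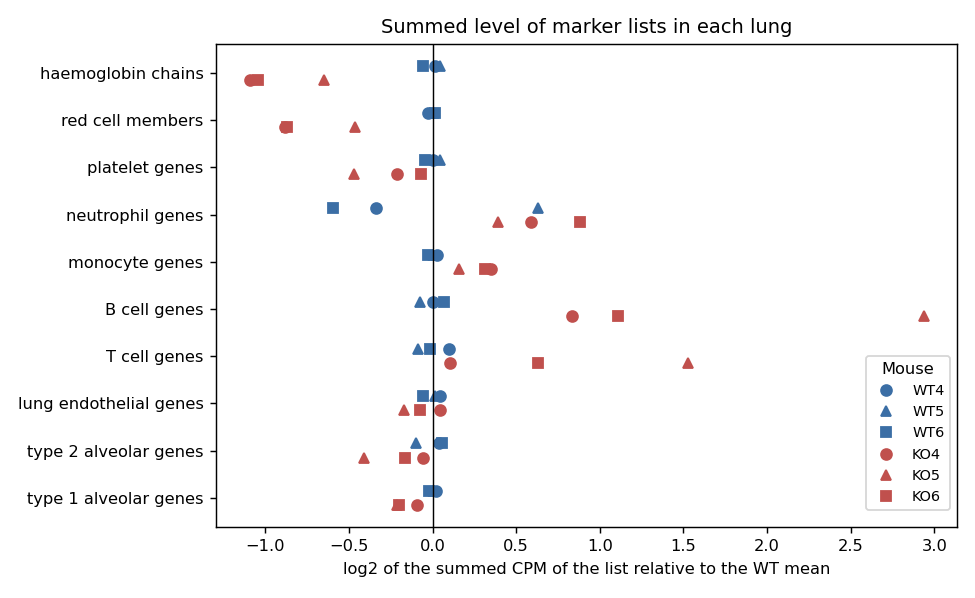
Summed CPM of each gene list in each lung, as log2 relative to the WT mean of that list (x axis), with 10 lists in rows and mice as points (WT blue, KO red, a marker shape per mouse number). The haemoglobin chains lie between -1.09 and -0.65 in KO mice, while the B cell list lies between 0.83 and 2.94 and the endothelial list between -0.17 and 0.04.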

How the data were processed

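Lung messenger RNA of 3 WT and 3 KO mice was analysed from 1 deposited table of raw counts per gene. The authors trimmed the reads (Trimmomatic 0.36, per the labels), aligned them to GRCm38 with STAR 2.5.3a and counted them with HTSeq 0.6.0, and Picard 2.9.0 is also listed. The annotation release and the strand setting of counting are not given in the sources used here. The deposited counts were used as they are, with groups from the sample labels.

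From these counts, CPM and RPKM were computed with TMM-scaled library sizes and GENCODE M21 exon lengths. Genes were kept by filterByExpr (minimum count 10, minimum total 15) and tested in edgeR 4.0.16 (glmQLFit and glmQLFTest, the quasi-likelihood test), with Benjamini-Hochberg adjustment over 17037 genes and a threshold of 0.05. DESeq2 1.42.0, edgeR's exact test, other scalings and filters, a replicate block and fits without each mouse were run as alternatives. Shares and ratios were compared by two-sided exact permutation tests. The floor was 3 counts, which with intervals covers counting error only. Only the quasi-likelihood fit was tested on simulated counts. R 4.3.3 and Python 3.11.15 were used.

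The members and lists were chosen with earlier results of these data known. Besides the 8 members, the genes named are, from each list, those called (at most 4, of lowest p) and the 3 most abundant, the nearest 5 profiles, the globins and the cell type markers. No 2 libraries of a group agreed within sampling noise (chi-square per degree of freedom 8.92 to 31.2). Nothing says that the mice came from separate litters, and p-values measure the spread between these mice. Promoters came from RefSeq (GRCm38.p6) and transcripts from GENCODE M21. Protein sequences were not used here, and some genes that the rule would name are not reported here.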

Additional observations from a re-analysis of the deposited data

How the results depend on the processing

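All 8 log2 fold changes stayed below 0 under every alternative that gave a value, and so did the log2 ratio of the haemoglobin share (-0.88, with -1.04 to -0.79 over 10 alternatives). The 6 members called stayed 6 under DESeq2 size factors, upper-quartile factors, library sizes without the haemoglobin chains, both filters, DESeq2 and edgeR's exact test. Epb42 has no value where 10 counts were required in every library. Bpgm per 1000 Eef2 counts gave -0.56. Leaving out each mouse in turn gave 0 to 7 members called, 0 to 10 other red cell genes (6 with all mice) and 0 to 28 other blood cell genes (15 with all mice). The log2 fold changes then ran from -1.03 to -0.77 for Hba-a1, -0.98 to -0.78 for Hba-a2, -1.10 to -0.86 for Hbb-bs, -1.06 to -0.80 for Hbb-bt, -1.11 to -0.80 for Alas2, -1.11 to -0.66 for Slc4a1, -0.54 to -0.40 for Bpgm and -0.77 to -0.10 for Epb42. Other red cell genes called were 14 by DESeq2 and 10 by edgeR's exact test, and other blood cell genes 27 without a filter, 33 by DESeq2 and 30 by the exact test. Apart from the fits with fewer mice, the cause of these differences was not tested.

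The sample labels do not say that the replicate numbers pair the mice. Deviations of same-numbered mice from their group means correlated at -0.03, -0.16 and -0.02 (r over 17013 genes). Those of differently numbered mice ran from -0.23 to 0.26. Deviations sum to 0 within each group, so these values depend on each other and cannot decide whether the mice were paired. With a replicate block 2 members, 0 other red cell genes and 2 other blood cell genes were called, of 66 genes in all, and Hba-a1 (-0.87, adjusted p = 0.0608), Hbb-bt (-0.91, adjusted p = 0.0525), Alas2 (-0.92, adjusted p = 0.0609) and Bpgm (-0.46, adjusted p = 0.0721) missed the threshold in edgeR. Counts were few for Epb42 (5 to 23 per library) and the precursor markers (0 to 8 per library).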
